A study of Mus musculus with 4 samples.

Results

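The comparison set NESTIN-GFP precursors, made in culture from induced pluripotent stem cells (iPSCs), beside primary dopaminergic (DA) neurons of the mouse embryo, by the DNA methylation of single cytosines. A position was included where both libraries had at least 5 calls on an autosome, a call being 1 sequenced copy of the position read as methylated or unmethylated. This gave 662555 positions, of 3940941 listed in any of the 4 libraries of the study. The level of a position is the percentage of its calls that were methylated. Positions were split by their neighbourhood: 381798 (57.6%) lay inside runs, which are stretches of 10 or more such positions spaced by less than 100 bp, and 280757 lay outside them. There were 15489 runs.

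The precursor library came from the strain Nestin Gfp/+, in which the Nestin gene's regulatory sequence drives GFP, and the cells were collected for GFP on the way from iPSCs to neurons. Its label names Nestin-GFP neurons, whereas the methods describe precursors, and the latter name is used here. The primary library came from neurons of E14.5 embryos of the strain Pitx3 Gfp/+, sorted by a GFP that marks DA neurons of the midbrain. The iPSCs and the iPSC-DA neurons, both Pitx3 Gfp/+, were used only for side-by-side values. Both iPSC lines were made from embryonic fibroblasts with retroviral Oct4, Klf4, Sox2 and cMyc. The precursors and the primary neurons thus differed in strain, in origin from culture or embryo, in stage and in library, and these cannot be told apart. Each condition had 1 library, so that no spread between replicates exists, and every test compares 2 libraries and not 2 conditions. DNA methylation gives no direct measure of NESTIN or PITX3, so the labelled cell types were not checked by marker expression.

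The assay was reduced representation bisulfite sequencing (RRBS), in which DNA is cut at CCGG, treated with bisulfite and sequenced, so that CpG-rich DNA is favoured. In mammals, methyl groups sit mostly on the cytosine of CpG pairs. Clusters of CpGs, many of them at promoters, are usually free of methylation, and isolated CpGs are usually methylated. At an imprinted gene certain regions are methylated on 1 parental copy and not on the other, so that their level over both copies is intermediate. The promoter of such a gene need not be 1 of these regions.

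Promoters were placed by the spacing of their CpGs on the positions of the files, whose chromosome lengths are those of mm9. The 250 bases before the start of 5 genes are shown because the results below turn on them: the DA genes Lmx1b, Slc6a3 and Nr4a2, the promoter Fam166c inside 1 of the runs with the largest rise, and the imprinted Mcts2, called lower. They lie at chr2:33496619-33496868 (minus strand), chr13:73673945-73674194 (plus), chr2:56976415-56976664 (minus), chr5:30768200-30768449 (plus) and chr2:152512634-152512883 (plus). The sequences are RefSeq's for GRCm38.p6, written 5′ to 3′ on the gene's strand. Capitals mark the CpGs that had at least 5 calls in both libraries on 1 strand or both. They are 7 of 19 CpGs for Lmx1b, 6 of 16 for Slc6a3, 22 of 44 for Nr4a2, 6 of 9 for Fam166c and 7 of 20 for Mcts2.
Lmx1b: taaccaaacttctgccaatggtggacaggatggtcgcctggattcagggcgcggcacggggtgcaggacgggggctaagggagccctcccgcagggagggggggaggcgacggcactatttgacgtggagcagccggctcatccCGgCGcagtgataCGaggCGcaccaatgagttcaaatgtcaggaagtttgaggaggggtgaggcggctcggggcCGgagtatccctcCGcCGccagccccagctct
Slc6a3: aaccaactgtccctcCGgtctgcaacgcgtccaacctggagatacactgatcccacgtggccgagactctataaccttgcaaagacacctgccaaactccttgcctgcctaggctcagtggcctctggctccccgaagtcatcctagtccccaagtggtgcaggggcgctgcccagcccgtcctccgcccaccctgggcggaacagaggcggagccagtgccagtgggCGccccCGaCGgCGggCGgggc
Nr4a2: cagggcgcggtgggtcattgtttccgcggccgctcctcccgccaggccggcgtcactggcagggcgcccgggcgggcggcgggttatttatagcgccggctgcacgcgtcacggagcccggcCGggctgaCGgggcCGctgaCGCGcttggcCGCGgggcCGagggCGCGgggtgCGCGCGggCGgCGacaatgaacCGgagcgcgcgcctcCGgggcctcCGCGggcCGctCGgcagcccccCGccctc
Fam166c: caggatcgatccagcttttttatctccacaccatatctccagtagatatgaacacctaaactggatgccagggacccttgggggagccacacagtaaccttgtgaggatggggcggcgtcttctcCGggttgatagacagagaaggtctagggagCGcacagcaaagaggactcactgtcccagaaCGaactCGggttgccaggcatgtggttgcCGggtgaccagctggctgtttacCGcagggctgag
Mcts2: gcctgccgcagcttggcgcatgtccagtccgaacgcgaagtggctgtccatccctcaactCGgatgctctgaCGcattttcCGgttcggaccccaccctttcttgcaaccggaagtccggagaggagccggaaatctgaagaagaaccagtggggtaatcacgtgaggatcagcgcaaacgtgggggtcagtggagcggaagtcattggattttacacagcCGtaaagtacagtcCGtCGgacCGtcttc

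Precursors were more methylated than primary neurons on both sides of the split. Inside runs the mean level was 15.3% in precursors and 8.96% in primary neurons, a difference of 6.31 points. Outside runs the means were 75.5% and 61.5%, a difference of 14.02 points. Both sizes depended on depth and weighting: with a minimum of 20 calls they were 3.82 and 9.26 points, and on calls pooled over all positions 11.0 and 27.1. The difference was above 0 on all 19 autosomes in both sets. It ranged from 4.89 points (chromosome 16) to 7.52 (chromosome 7) inside runs, and from 12.4 (chromosome 3) to 16.8 (chromosome 19) outside. Chromosomes of 1 library are not replicates, and these ranges describe the evenness of the difference along the genome.

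The means hid shapes that differed between the sets. Inside runs the typical position was unmethylated in both libraries: the medians were 0% in precursors and 1.15% in primary neurons, and 51.9% and 38.1% of positions had no methylated call at all. The excess of the precursors came from an upper tail. Its 75th and 90th percentiles were 18.8% and 54.5%, against 9.20% and 23.1% in the primary neurons. Outside runs the median was 94.1% in precursors and 82.8% in primary neurons. There 37.0% of positions were fully methylated in the precursors and 15.998% in the primary neurons. Shares at exactly 0% or 100% depend on depth, since a position with few calls reaches these values more easily. The median was 16 precursor calls and 88 primary calls inside runs, and 21 and 45 outside. The part of depth in these shares was not tested. Intermediate levels, from 20% to under 80%, were found at 18.5% of precursor positions (95% Wilson interval 18.4 to 18.6) and 9.38% of primary positions (9.29 to 9.47) inside runs. Outside runs the order was the opposite, with 17.0% (16.9 to 17.1) in precursors and 21.1% (21.0 to 21.3) in primary neurons. Intervals cover counting error only.

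**Figure D1:**
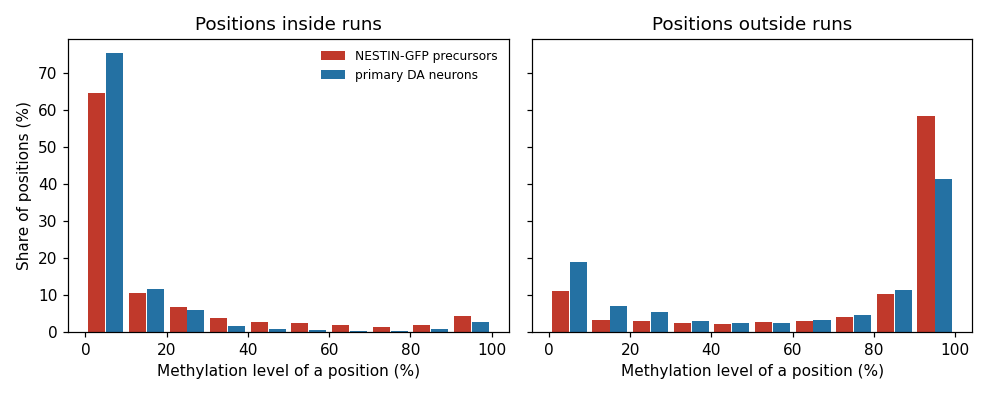
Share of positions (%) in each 10-point bin of methylation level, inside runs (left) and outside runs (right), for the precursor library (red) and the primary library (blue). Inside runs both libraries pile up near 0%, with a longer upper tail in the precursors. Outside runs the top bin is higher in the precursors.

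Over all positions, moves up outnumbered moves down. Inside runs 16.2% of positions were at least 20 points higher in precursors and 3.71% at least 20 points lower. Outside runs the shares were 27.8% and 2.27%. A position under 20% in the primary neurons cannot fall by 20 points, and 87.1% of those inside runs were of this kind. Among the 35946 positions inside runs from 20% to 80% in primary neurons, which could move either way, 24.8% were at least 20 points higher and 37.8% at least 20 points lower. Among the 62324 such positions outside runs the shares were 70.0% and 5.53%. These positions were chosen by the same primary calls that enter the difference, so the shares are a description. Differences of at least 50 points upward were seen at 4.80% of positions inside and 11.7% outside, and downward at 0.0854% and 0.205%. Most positions stayed close: 63.8% inside and 53.7% outside were within 10 points.

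The opposite strands of 1 CpG gave a measure of error within a library. For CpGs with at least 20 calls on each strand in both libraries, 18417 pairs inside runs had a median gap between strands of 1.92 points in precursors and 0.709 in primary neurons. The median gap between the libraries was 1.54 points, so that at the typical CpG inside a run the libraries differed by no more than the strands of the precursor library did. Gaps of 20 points or more were another matter: 8.86% between libraries, against 4.91% between strands in precursors and 0.733% in primary neurons. Outside runs, over 3664 pairs, they were 19.7% between libraries against 4.80% and 1.47% between strands. Where the first strand was at least 20 points higher in precursors, the second strand was too in 81.1% of pairs outside runs (78.0 to 83.9) and in 59.0% inside (56.4 to 61.6).

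Depth moved with the difference. The precursor library was the shallower, with 31419979 calls in all against 72993474, and with a median of 18 calls against 72 at the positions compared. Outside runs the difference fell from 19.3 points at positions with 5 to 9 precursor calls to 7.88 at those with 50 or more. Inside runs it fell from 8.72 to 5.48, with the lowest value, 4.47, at 20 to 49 calls. Positions of different depth also differed in level: outside runs the primary mean rose from 38.0% to 82.0% over the same classes. The part of depth in the difference was not tested beyond the alternatives given further on.

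The difference varied with the level in the primary neurons. Outside runs, positions under 20% in primary neurons had a mean of 5.66% there and 32.4% in precursors, a difference of 26.8 points. The difference was 33.7 points in the class from 20% to 40%, 36.1 from 40% to 60% and 21.1 from 60% to 80%. In the class of 80% or more, which held 52.7% of the positions outside runs, it was 1.42 points (94.4% and 95.8%), where little room was left for a rise. The precursor median was 71.4% in the class from 20% to 40%, with a lower quartile of 33.3%, and 92.9% in the class from 40% to 60%. In the latter 84.8% of positions (84.2 to 85.4) were at least 20 points higher and 3.62% at least 20 points lower.

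Inside runs the same classes behaved otherwise. Positions under 20% in primary neurons, 87.1% of those inside runs, had means of 3.09% and 10.4%, and 15.97% of them (15.8 to 16.1) were at least 20 points higher in precursors. The 29069 positions from 20% to 40% were lower in precursors on average, 23.3% against 26.0%, with a median of 11.1%. There 41.8% of positions were at least 20 points lower and 20.4% at least 20 points higher. This class turned with the way it was formed. When the class was taken from a random part of the primary calls of each position and the difference from the other part, the means were 22.7% and 22.1%, a difference of 0.578 points. The classes from 40% to 60% and from 60% to 80% were few inside runs and higher in precursors, by 6.25 and 11.6 points. In the class of 80% or more the difference was −0.794 points, and it too turned, to 0.206, when class and difference came from separate parts of the primary calls.

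**Figure D2:**
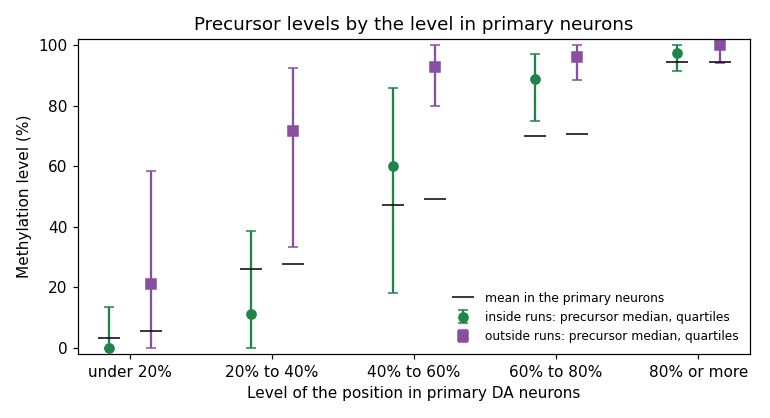
Precursor level (%) by the level of the position in the primary neurons, as median with quartiles, inside runs (green circles) and outside (purple squares), with the mean of the primary neurons as a black bar. Outside runs the precursor medians lie above the bars in every class, and inside runs the first and second class have medians of 0% and 11.1%, under the bars. Medians and means are unlike measures: inside runs the precursor means of these classes were 10.4% and 23.3%, against 3.09% and 26.0% in primary neurons.

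The other libraries stood at different levels in these classes. At the 12062 positions outside runs with 40% to 60% in primary neurons and at least 5 calls in all 4 libraries, the medians were 38.0% in iPSCs, 92.5% in precursors, 64.5% in iPSC-DA neurons and 50% in primary neurons. At the 69334 such positions under 20% in the primary neurons, they were 2.17%, 20%, 15.5% and 2.82%. Outside runs as a whole the medians were 45.5% in iPSCs, 93.1% in precursors, 73.7% in iPSC-DA neurons and 80% in primary neurons, so that the precursors were the highest of the 4 libraries. Inside runs the mean was highest in iPSC-DA neurons, 19.4%, against 14.96% in precursors, 8.73% in primary neurons and 5.72% in iPSCs.

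The difference was graded by the distance from CpG-rich DNA. Positions from 100 to under 500 bp away from a run had means of 33.0% in precursors and 14.54% in primary neurons, and positions from 500 to under 2000 bp away had 56.0% and 35.9%. The differences there, 18.5 and 20.1 points, exceeded the 11.6 points at 50 kb or more, where the means were 86.0% and 74.4%. In the first of these classes, 37.1% of precursor positions were intermediate and 20.1% of primary positions. Depth changed along the same axis: the median was 12 precursor calls in the first class, 16 in the second and 24 at 50 kb or more. The parts of depth and of the room left for a rise were not tested. Inside runs the difference shrank with the size of the run: 9.85 points in runs of 10 to 19 positions, 6.10 at 20 to 39, 3.71 at 40 to 79 and 3.32 at 80 or more. Within runs of at least 20 positions, the outer 50 bp differed by 6.32 points and the part 200 bp or more from an edge by 3.42.

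Runs were then tested one by one, on calls pooled over their positions. A run was called where the adjusted p-value was under 0.05 (two-sided Fisher's exact test, Benjamini-Hochberg over all runs) and the levels differed by at least 20 points. Of 15489 runs, 1967 (12.7%) were higher in precursors and 27 (0.174%) lower. The p-value alone passed in 10730 runs. Runs held a median of 402 precursor calls and 1940 primary calls, the calls of 1 read count separately, and PCR copies were not removed here. The part of each in this count was not tested. With calls averaged over the positions of a run, which treats a run as 1 position, 982 runs were higher and 12 lower. With a minimum of 20 calls, 436 of 6313 runs (6.91%) were higher and 9 lower.

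The higher runs were mostly low in the primary neurons, as were runs in general. Of the 1967, 1683 were under 20% there, and of all 15489 runs 14046 were. Of those 14046 runs, 12.0% were called higher. The median over the 1967 was 7.36% in primary neurons, against 40.5% in precursors (quartiles 31.5% and 60.6%). Only 238 reached 80% in precursors. They were smaller than the runs not called, with a median of 14 positions against 20, and shallower, with 255 precursor calls against 429. Of runs with 10 to 19 positions 18.6% (17.7 to 19.4) were higher, and of runs with 80 or more, 1 of 276. Among the runs at 20% to under 40% in primary neurons, 146 of 190 were higher and 8 lower. Runs at 80% or more in primary neurons have no room for a rise of over 20 points, and 8 of the 958 were lower. Intermediate levels were found in 2834 runs (18.3%, 17.7 to 18.9) of the precursors and 485 (3.13%, 2.87 to 3.42) of the primary neurons.

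**Figure D3:**
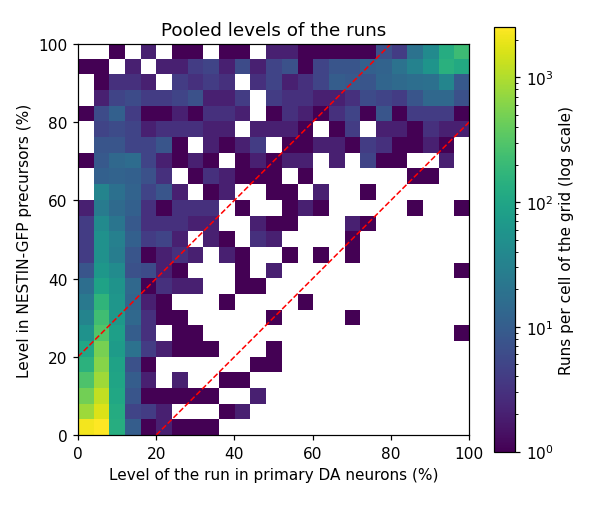
Number of runs (colour, log scale) by pooled level in primary neurons (horizontal axis, %) and in precursors (vertical axis, %), in cells of 4 by 4 points, with dashed lines at 20 points of difference. The runs above the upper line form a column at low primary levels and a band from the lower left to the upper right. Few runs lie under the lower line.

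The 6 largest rises among called runs of at least 20 positions and 200 calls in each library were between 64.7 and 70.0 points. The run chr7:53014813-53015165 had 84.5% in precursors (1388 calls) and 14.52% in primary neurons (2334 calls). It overlapped the promoter of Sult2b1, a sulfotransferase of cholesterol, and all of its 25 positions were higher. The run chr5:30768325-30768556, at the Fam166c promoter shown above, had 77.2% (1069 calls) and 8.11% (2970 calls). At Fam166c the measured CpG 12 bases before the start had a mean of 84.1% in precursors and 0.791% in primary neurons, and that 95 bases before it 92.1% and 4.05%. Precursor levels were lower at the CpGs 64 and 58 bases before the start, 46.0% and 42.0% on 50 calls each, with 2.91% and 3.88% in primary neurons. The run chr19:29122072-29122311, 91 bp from the promoter of Ak3, an adenylate kinase of mitochondria, had 71.4% and 6.67%. Its levels in iPSCs, 5.64%, and in iPSC-DA neurons, 10.5%, were also low. In the other 5 of these runs the iPSC-DA level lay between 40.6% and 76.6%. Those 5 were chr7:53014813-53015165, chr17:89191186-89191420, chr5:30768325-30768556, chr11:101126491-101126755 and chr7:7230386-7230541.

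Of the 3 runs with the most positions, none was called. The largest, chr17:39981411-39983291 with 336 positions, held 454247 precursor calls and 1540039 primary calls, far above any other named run, and had 39.2% and 23.1%. The run chr6:47997573-47998580, with 213 positions at the promoter of the zinc finger gene Zfp777, had 3.05% and 3.32% (adjusted p = 0.445, Fisher's exact test with Benjamini-Hochberg adjustment). The run chr18:84254469-84255228 had 1.12% and 3.997%. The 3 runs nearest to 50% in both libraries differed by 1.32 to 3.46 points. They were chr17:50432161-50432946 (49.2% and 47.9%), chr14:55732430-55732990 (50.9% and 49.1%) and chr2:174125399-174125583 (49.9% and 46.5%), the last of these 29674 bp from the placed promoter of Gnas. Their iPSC levels were 8.004%, 7.74% and 5.19%.

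Promoters, which carry gene names, were compared by the same rule. Windows of 300 bases around the start of 5417 genes were placed, and 4878 genes had a window with at least 5 positions. The median level was 5.81% in precursors and 4.85% in primary neurons, and the means were 12.0% and 6.04%. By the rule used for runs, 610 promoters (12.5%) were higher in precursors and 4 (0.082%) lower, and 3677 were within 10 points. The higher promoters had a median of 39.3% in precursors and 6.51% in primary neurons, and 146 promoters were at 50% or more in precursors while under 20% in primary neurons. At the 610 the median was 5.03% in iPSCs and 14.2% in iPSC-DA neurons, and 346 were under 20% in iPSC-DA neurons. The share of all 4878 promoters under 20% there was not counted. Runs differed from this: at the 1959 higher runs with at least 5 positions measured in all 4 libraries, the iPSC-DA median was 38.8%. Of these, 529 were under 20%. At the 13430 such runs not called the median was 6.34%, and 8978 were under 20%. With calls averaged over positions 210 promoters were higher and none lower. At a minimum of 10 calls 354 of 4025 were higher and 2 lower.

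Few of the listed DA genes could be measured. Of 14, 6 could be measured, and 2 of these were called higher, where 12.5% of all promoters were. Lmx1b, a homeobox factor of midbrain DA development, had 27.5% (20.01 to 36.6, 109 calls) in precursors and 6.04% (4.65 to 7.82, 877 calls) in primary neurons. Slc6a3, the dopamine transporter, had 50% (39.5 to 60.5, 84 calls) and 10.6% (7.55 to 14.8, 282 calls). Both calls were lost with calls averaged over positions (adjusted p = 0.215 for Lmx1b and 0.264 for Slc6a3, Fisher's exact test with Benjamini-Hochberg adjustment). In the Slc6a3 sequence above, the 5 measured CpGs from 22 to 6 bases before the start had 80% in precursors on 5 calls each. In primary neurons they had 0% to 14.3%, on only 6 or 7 calls each. The CpG 235 bases before the start had 14.8% in precursors on 27 calls and 15.5% in primary neurons on 110 calls. In the Lmx1b sequence the CpGs from 106 to 88 bases before the start each had 35.7% in precursors on 14 calls. Equal values at neighbouring CpGs of equal depth can come from the same reads.

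Among the others, En1, a homeobox factor of the midbrain, had 11.4% and 3.39%, and the dopamine receptor gene Drd2 had 11.8% and 4.55%. Foxa2, a floor plate factor, had 3.54% and 1.18%. Nr4a2, a nuclear receptor required for DA neurons, had 2.08% (336 calls) and 3.58% (2400 calls), over the 29 positions of its window, and did not pass the test (adjusted p = 0.258, Fisher's exact test with Benjamini-Hochberg adjustment). The iPSC-DA levels were 32.1% for En1, 33.5% for Drd2, 42.4% for Foxa2, 47.2% for Lmx1b, 54.4% for Slc6a3 and 2.64% for Nr4a2. Of 6 genes of neural precursors 3 were measured and none was called. Nes, which encodes NESTIN, had 3.03% (66 calls) and 4.38% (776 calls), Sox2 had 11.1% and 6.58%, and Pax6 had 0.469% and 5.04%. The 4 pluripotency genes and the 6 imprinted loci of the lists had no placed promoter and no value.

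The largest rise of a promoter with at least 8 positions and 100 calls in each library was 88.7 points, at Gm36794 (94.2% in precursors, 5.57% in primary neurons, 68.1% in iPSCs). Slc15a1, a peptide transporter, had 90.8% and 11.6%, and Nktr had 83.3% and 7.49%. Itgb1, an integrin chain expressed in most cells, had 73.3% (131 calls) and 8.64% (972 calls), with 5.10% in iPSCs and 7.27% in iPSC-DA neurons. Sdr39u1 had 65.2% and 6.33%, with 4.24% and 6.03% in those libraries. Both had low levels in the 3 other libraries. Abca17, a lipid transporter, had 74.2% and 6.19%, with 36.6% in iPSC-DA neurons, and Icosl, a costimulator of T cells, had 74.7% and 6.60%, with 44.6%. These genes were picked for their size of rise, so the rise itself supports nothing further.

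**Figure D4:**
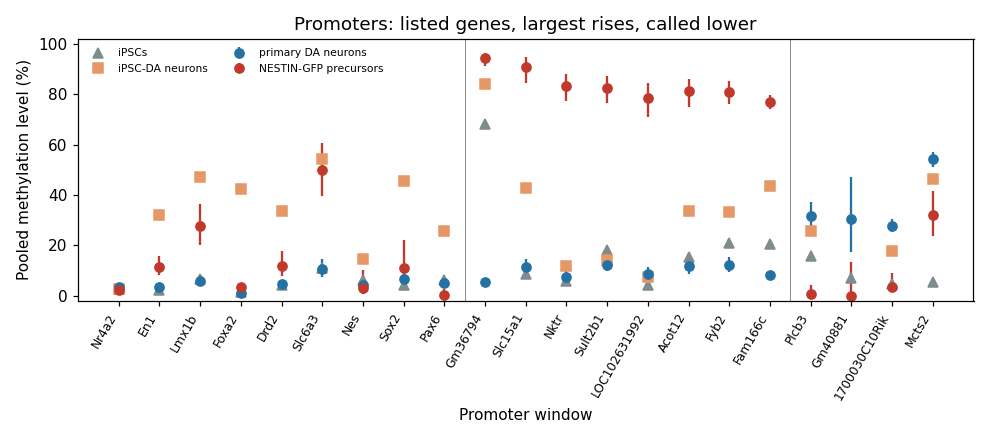
Pooled methylation level (%) of promoter windows in the 4 libraries, with 95% Wilson intervals for precursors (red) and primary neurons (blue), and with iPSCs as triangles and iPSC-DA neurons as squares. From left to right are the listed DA and precursor genes, the 8 largest rises and the 4 promoters called lower. The precursors are at 50% or less at every listed gene and at 77.1% or more at the 8 largest rises.

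Runs lower in precursors were few and lay on 6 chromosomes. In 25 of the 27 the iPSC level was under 20%, and in 15 the primary level was between 30% and 60%. A run can be called lower only from a primary level of 20% or more. The share at 30% to 60% among all such runs was not counted, so the 15 are a description. Among runs with at least 5 positions measured in all 4 libraries, the iPSC level was under 20% in 94.1% of those not called. It was under 20% in 90.9% of the higher runs. Of the 27, 10 lay on chromosome 12, and of these 7 were between positions 19496486 and 23255725. Chromosome 12 held 673 of the 15489 runs, and 1.49% of its runs were lower, against 0.174% of all runs. The 3 with the highest primary level lay together at chr12:109153851-109155152. They had 98.7%, 98.1% and 98.3% in primary neurons, 25.2%, 57.4% and 42.1% in precursors, and 5.65%, 7.03% and 6.31% in iPSCs. The first of them fell by 73.5 points, the largest fall of any run, but its 15 positions were fewer than the 20 set for the named runs.

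Of the 27 lower runs, 7 (25.9%) lay within 2000 bp of a placed promoter, against 6502 of all 15489 runs (42.0%). The runs described next lie beside genes known as imprinted or as neighbours of imprinted genes. They were picked after the values were seen, and no share of imprinted genes among the lower runs was tested. The run chr10:12810599-12810995, at the promoters of Plagl1, a zinc finger gene, and of the noncoding Hymai, had 22.6% in precursors (20.3 to 25.2, 1144 calls) and 50.7% in primary neurons (49.3 to 52.1, 4823 calls). It had 4.12% in iPSCs and 65.2% in iPSC-DA neurons. The run chr11:11926188-11926472, 10902 bp from the placed promoter of Grb10, an adaptor of growth factor receptors, had 7.17% and 42.9%. None of its 57 positions was higher in precursors. Near Gnas, which encodes a G protein subunit, 2 runs were also lower: chr2:174153351-174153504 had 10.3% and 45.4%, and chr2:174153898-174154084 had 16.7% and 45.9%. In iPSC-DA neurons these 3 runs had 36.5%, 36.2% and 44.2%, and in iPSCs 3.46%, 3.84% and 5.35%. The run chr11:22871902-22872128, 689 bp from the promoter of Commd1, had 19.1% and 49.2%. The rule for the largest falls also named runs outside this selection. These were chr7:69522117-69522436 (11.1% in precursors and 35.8% in primary neurons) and chr11:87430977-87431147 (65.4% and 86.1%). The former lay 834927 bp from the nearest placed promoter, and the latter 262 bp from that of Hsf5. On the same part of chromosome 7, chr7:69564699-69564732 (0.402% and 30.4%) and chr7:69608405-69608558 (9.88% and 30.4%) were also lower. Promoters were placed for 5417 of 25748 genes, so a run without a placed promoter nearby can still lie beside an imprinted gene. Whether these runs lie near imprinted genes was not tested.

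**Figure D5:**
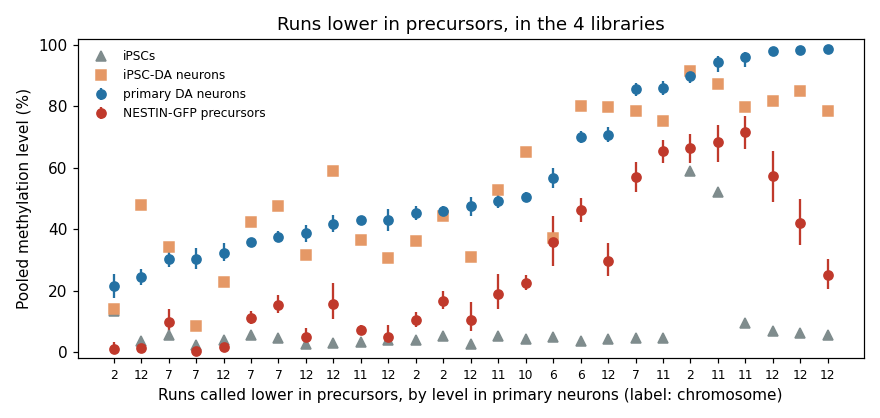
Pooled methylation level (%) of the 27 runs called lower in precursors, ordered by their level in primary neurons and labelled by chromosome, with 95% Wilson intervals for precursors (red) and primary neurons (blue). The iPSCs (triangles) are under 20% in 25 runs, as they are in most runs not called, and the precursors lie above the iPSCs in 23 of the 27. The share of all runs with precursors above iPSCs was not counted. At the 13430 runs not called with at least 5 positions measured in all 4 libraries, the medians were 6.57% in precursors and 3.91% in iPSCs.

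Of 18 imprinted genes listed after the values were seen, 6 had a measured promoter, of which 2 were called higher and 1 lower, where 12.5% of all promoters were higher and 0.082% lower. The choice of the list after the fact leaves these counts a description. Mcts2, a retrogene expressed from 1 parental copy, had 32.0% in precursors (103 calls) and 54.1% in primary neurons (1173 calls), and it was 1 of the 4 promoters called lower. In the sequence above, its CpGs from 190 to 169 bases before the start had 9.09% on 11 precursor calls each, and the 4 from 29 to 7 bases had 42.9% on 14 calls each. Igf2r, the receptor that clears IGF2, had 32.7% and 3.03%, with 66.7% in iPSC-DA neurons. Grb10 had 16.6% and 4.02%. Gnas had 0 of 323 calls methylated in precursors, which allows a level of up to 0.929%, and 4.79% in primary neurons. The windows of Plagl1 (72.1% and 39.1%) and Hymai (60.5% and 50.8%) overlap each other and the edge of the lower run at this locus, and the Plagl1 window rests on 104 precursor calls. The other promoters called lower were Plcb3, a phospholipase C (0.775% and 31.5%), Gm40881 (0 of 25 calls, which allows up to 12.0%, and 30.3%) and 1700030C10Rik (3.604% and 27.8%), the last of these 227 bp from a lower run on chromosome 12.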

How the data were processed

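RRBS data of NESTIN-GFP precursors and of primary DA neurons, 1 library each, were compared, with iPSCs and iPSC-DA neurons beside them. According to the submitters' processing notes and the methods, the authors used FastQC, Trim Galore 0.3.5 and Bismark 0.10.1. The authors deposited the counts of methylated and of unmethylated calls for each cytosine position and strand, and the percent of methylated calls, with no normalization. The build is not given in the sources used here. The chromosome lengths in the files are those of mm9, and no genome of it was used.

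The level is methylated calls over all calls. The libraries held 31419979 and 72993474 calls, so a position with 5 calls takes few values. Runs and promoters were compared on pooled calls by Fisher's exact test (two-sided), adjusted by Benjamini-Hochberg over all runs or all promoters, with scipy 1.17.1 and statsmodels 0.14.6, and called at an adjusted p-value under 0.05 and 20 points. Shares have Wilson 95% intervals, which cover counting error only. A count of 0 allows 3 counts. Scripts were tested on simulated data.

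RefSeq promoter sequences of GRCm38.p6 (300 bases, 250 of them before the start) were placed on the positions of the files by the spacing of CpGs. Every position of the window with at least 5 calls in at least 2 libraries had to fall on a CpG, with at least 8 CpGs covered and a lead of 3 positions over the next placement within 8 Mb of the table's start. Of 15382 sequences with enough CpGs, 6074 were placed, and 5984 shared their shift with another placement at least 1000 bp away and were kept, on 18 autosomes. Read in the wrong orientation, 222 were placed. A trial on chromosome 19, a narrower window that left most of chromosome 7 unplaced and a looser rule were also tried, and promoter levels had been seen before the choice. The plan named genes only with an annotation of the build of the files, so naming genes departs from it. A gene with several windows is given by that with most positions.

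Named runs are of 3 kinds. Among called runs with at least 20 positions and 200 calls in each library, the 6 largest rises and 6 largest falls (5 existed) were taken. Among all runs, called or not, the 3 with the most positions were taken, and among those of the same least size the 3 nearest to 50% in both libraries. Other lower runs, promoters, the genes whose sequence is shown and the list of 18 imprinted genes were chosen after their values were seen. The positions compared and the lists were chosen with earlier results of these data known.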

Additional observations from a re-analysis of the deposited data

Results flagged for a closer look

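The X chromosome was left out of the comparison and stood apart from the autosomes. Inside runs its mean level was 21.2% in precursors and 28.1% in primary neurons, a difference of −6.84 points over 4177 positions, where every autosome had a difference above 0. Outside runs the difference was 2.63 points over 6533 positions (68.8% and 66.1%). Of 242 runs on the X chromosome 16 were called higher and 42 lower in precursors, by the rule used for the autosomes. The X chromosome took 0.671% of the calls on autosomes and X in the precursor library and 1.31% in the primary library, counted at positions listed in both. The makeup of the libraries by sex is not given in the sources used here, and its part in these values was not tested.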

How the results depend on the processing

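None of the overall mean differences, shares, counts of runs and promoters, or the low class inside and high class outside runs reversed. The class differences inside runs at 20% to 40% (−2.68) and at 80% or more (−0.794) did turn, to 0.578 and 0.206, when class and difference came from separate primary calls. Over 96 values under alternatives, 36 differed from the reported value by less than the measure used and 60 by more. The measure was 1 SD over the 19 autosomes for mean differences, since no replicates exist, the Wilson interval for shares, and 1.5 times for counts. The measures are narrow, so small shifts count as moves, and the causes were not tested. No paired analysis was possible because each group has 1 sample.

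Depth limits the precision of single positions. Values are given in the order of a minimum of 10 calls and of 20 calls. The mean difference was 4.77 and 3.82 points inside runs, 11.9 and 9.26 outside, and 5.63 and 4.32 inside runs under 20% in primary neurons. The shares at least 20 points higher were 12.7% and 9.29% inside and 24.1% and 18.5% outside, and those lower outside 1.90% and 1.52%. Higher runs numbered 1079 and 436, and lower runs 9 at 20 calls.

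With the primary library thinned to the precursor total, the mean differences were 5.06 inside, 12.8 outside, 6.54 in the low class inside and 0.655 at 80% or more outside, and the shares 14.47%, 27.0% and 2.90% in the same order as above. With neighbouring positions merged, the share inside was 15.9% and the difference at 80% or more outside 0.442. With that class taken from one part of the primary calls it was 2.59. Pooled calls gave 11.0 inside and 27.1 outside.

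The borders of the runs mattered as well. Runs of at least 5 positions gave 7.99 inside, 9.11 in the low class, and shares of 18.9%, 27.6% and 2.004%. Of these 32782 runs, 6661 (20.3%) were higher and 96 lower. Runs of at least 20 gave 4.87 inside, 12.8 outside, 5.98 in the low class, and shares of 13.7%, 26.3% and 2.62%. Of these 7300 runs, 446 (6.11%) were higher and 6 lower. Gaps under 200 bp gave 7.46 inside, 8.42 in the low class and shares of 18.3%, 26.1% and 2.05%.

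At 10 and 30 points in place of 20, 4072 and 1012 runs were higher and 81 and 12 lower. The following were chosen after seeing the data. Calls averaged over positions left 982 higher and 12 lower runs, and 210 higher and 0 lower promoters. For that 0, the summed calls gave 4. With the X chromosome there were 69 lower runs. Promoters numbered 354 higher and 2 lower of 4025 at a minimum of 10 calls, and 329 and 2 of 4878 at 30 points. Placement by at least 6 CpGs gave 697 higher of 5210 promoters.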
